A study of Mus musculus with 11 samples.

Results

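The VEGF ligands and receptors are described here in the lungs of old mice that differ at the p21 (Cdkn1a) locus. The 9 members are the ligand genes Vegfa, Vegfb, Vegfc and Pgf, the receptor genes Kdr, Flt1 and Flt4, and the co-receptor genes Nrp1 and Nrp2. They were taken by symbol from the 31053 genes in the files, all 9 were found, and each is given as UMIs (unique molecular identifiers, which count captured RNA molecules) per 1000000 UMIs, CPM, in each library and cell class.

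Whole lung was dissociated and profiled by droplet-based 3′ single-cell RNA sequencing in 11 libraries. Per the labels, 1 library came from a wild type mouse (WT, +/+), 3 from p21 heterozygotes (p21Het, +/-), 5 from mice with an mTert allele (p21mTert, +/mTert) and 2 from mice with an mTertCD allele (p21mTertCD, +/mTertCD), mTert being the gene of the mouse telomerase reverse transcriptase. The labels do not spell out mTertCD. The series title places mTert induction in p21-positive cells beside capillary loss and emphysema. Mice were 18 months old by their age labels, except p21Het_1 at 19 months and p21mTert_1 at 20 months, whose titles give 18 months. The 3 groups other than WT each keep 1 p21 allele marked as normal. The labels do not say whether a library is 1 animal, so p-values measure the spread between these libraries.

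Vascular endothelial growth factors are secreted ligands that bind receptor tyrosine kinases on endothelial cells. Vegfa signals mainly through Kdr (VEGFR-2), while Flt1 (VEGFR-1) binds Vegfa, Vegfb and Pgf tightly with weak kinase activity and also exists in a soluble form, and Flt4 (VEGFR-3) receives Vegfc and serves lymphatic growth. The neuropilins Nrp1 and Nrp2 are co-receptors that bind both VEGFs and class 3 semaphorins. Lung capillaries hold general capillary cells, which act as progenitors, and aerocytes, which are large thin cells of the capillary wall. Counts here are per gene, so soluble and membrane-bound forms are not told apart.

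The files held 81983 barcodes, of which 69266 had 1000 to 30000 UMIs and at most 14% mitochondrial UMIs and were kept. Of these, 61037 (88.1%) were assigned to 1 of 18 classes by marker genes, none of them a member, and 7075 endothelial cells were divided further. Libraries held 42038434 to 85988955 UMIs, and their kept cells had medians of 4133 to 6454 UMIs. WT, p21Het_1 and p21mTert_1 were deposited earlier and had median mitochondrial shares of 6.30% to 6.58%, against 2.82% to 4.28% in the 8 later libraries. The share of kept cells assigned to a class was lowest in p21Het_2, at 79.8%. Tert, which checks the labels, was at 0.544 to 0.842 CPM in p21Het, at 1.13 CPM in WT, at 1.90 to 2.59 CPM in p21mTertCD and at 2.00 to 3.28 CPM in p21mTert. Cdkn1a was at 155 CPM in WT and at 136 to 187 CPM in p21Het. It was at 124 to 160 CPM in p21mTert and at 118 and 174 CPM in p21mTertCD, and these ranges overlapped. Any pair of libraries shared at most 20 kept barcode sequences. Sftpc, the surfactant gene that marks alveolar type 2 (AT2) cells, averaged 157568 CPM in the class gated as AT2 and 213 to 929 CPM in every other class, so UMIs of a highly expressed gene were found at a low level in cells of every class.

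The promoters of Kdr, Flt1 and Vegfa are shown because these genes mark the endothelial and epithelial sides of the pattern described next. Each run is the strand of the gene, 5′ to 3′, from 250 to 11 bases before the RefSeq start (GRCm38.p6). The capitals mark GGAA or its reverse complement TTCC, the core letters bound by ETS factors, a family active in endothelium.

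Kdr, chr5:75978466-75978705, minus strand: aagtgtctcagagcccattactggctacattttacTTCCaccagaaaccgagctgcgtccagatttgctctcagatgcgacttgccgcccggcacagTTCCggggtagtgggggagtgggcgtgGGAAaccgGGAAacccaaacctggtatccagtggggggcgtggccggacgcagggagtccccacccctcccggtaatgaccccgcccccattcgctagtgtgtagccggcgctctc

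Flt1, chr5:147726022-147726261, minus strand: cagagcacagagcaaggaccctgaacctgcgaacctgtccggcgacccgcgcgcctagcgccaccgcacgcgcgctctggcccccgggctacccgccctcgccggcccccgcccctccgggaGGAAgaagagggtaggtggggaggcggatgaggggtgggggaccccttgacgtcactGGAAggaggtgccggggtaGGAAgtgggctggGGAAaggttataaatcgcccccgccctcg

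Vegfa, chr17:46032388-46032627, minus strand: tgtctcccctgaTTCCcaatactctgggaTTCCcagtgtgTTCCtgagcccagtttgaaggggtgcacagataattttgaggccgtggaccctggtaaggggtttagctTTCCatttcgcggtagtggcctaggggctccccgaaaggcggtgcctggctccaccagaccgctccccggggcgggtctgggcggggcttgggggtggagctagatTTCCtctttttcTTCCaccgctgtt

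The Kdr and Flt1 windows held 4 copies each and the Vegfa window held 6, counted on both strands without overlap. Of 32851 RefSeq promoter windows of the same 240 bases, 92.7% held the motif, 30.5% held 4 or more and 7.36% held 6 or more. ACGTG, the core letters of the hypoxia response element, was in none of the 3 windows shown and in 15.9% of all. RefSeq also lists a second Vegfa start further into the gene, whose window (chr17:46025174-46025413, minus strand) held 1 copy of GGAA and 1 of ACGTG. These matches describe letters only.

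By GENCODE M21 (GRCm38), Kdr (ENSMUSG00000062960) spans chr5:75932827-75978458 and Flt1 (ENSMUSG00000029648) spans chr5:147561604-147726011, both on the minus strand. Vegfa (ENSMUSG00000023951) spans chr17:46016993-46032369 on the minus strand. No annotated gene overlaps these 3. Nrp2 (chr1:62703285-62818695, plus strand) shares its span with the antisense gene Gm29083, which is in the files.

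**Figure D1:**
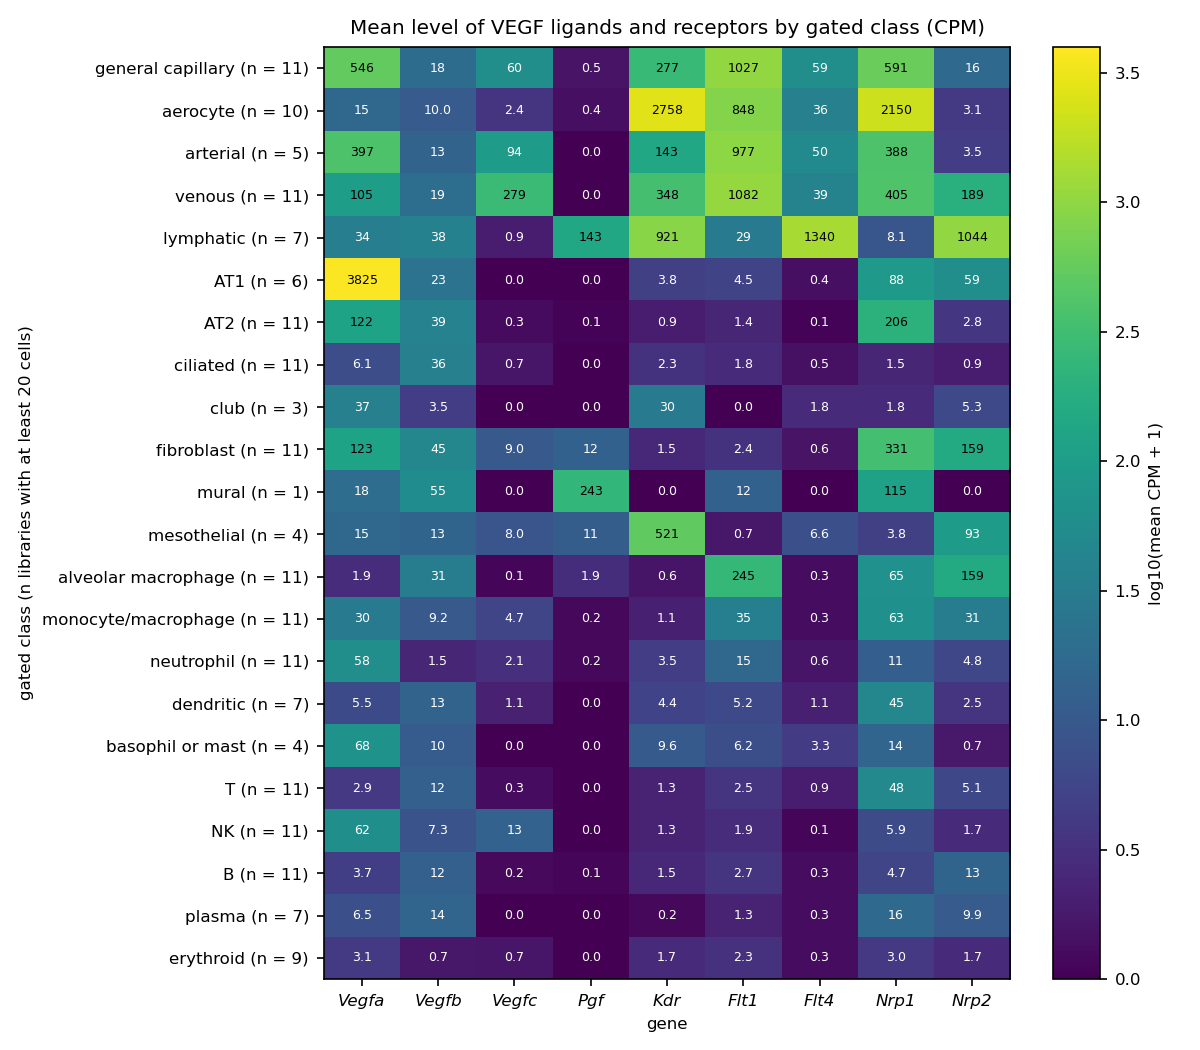
Mean CPM of each member (columns) in 22 gated classes (rows, with the number of libraries that have at least 20 cells), coloured by log10(mean CPM + 1) and printed in each cell. Vegfa is highest in AT1, Kdr and Nrp1 in aerocytes, and Flt4 and Nrp2 in lymphatic cells.

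Vegfa, the main angiogenic ligand, was highest in alveolar type 1 (AT1) cells, the flat cells of gas exchange. The 6 libraries with at least 20 AT1 cells were 4 p21mTert, 1 p21Het and 1 p21mTertCD. They ranged from 3043 to 4520 CPM, with a median of 3701 CPM. In AT2 cells of the same libraries, the lowest was 107 CPM, the median 122 CPM and the highest 139 CPM. The ranges lie far apart, and all 6 libraries show the same order. The difference was 4.50 on the log2 scale (SE 0.16, edgeR adjusted p = 1.36e-15). General capillary cells came second, at 546 CPM ± 77.5 (SD, n = 11), and did not overlap with AT1. Arterial cells followed at 397 CPM ± 76.2 (SD, n = 5) and overlapped with general capillary cells, which were higher in 4 of the 5 libraries with both. Those 5 libraries were 4 p21mTert and 1 p21Het. Fibroblasts, AT2 and venous cells formed the next level, at means of 123, 122 and 105 CPM, and their ranges overlapped.

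The capillary types differed widely in this ligand. In aerocytes Vegfa ranged from 0 to 50.1 CPM, with a median of 14.7 CPM. In general capillary cells of the same 10 libraries it ranged from 454 to 696 CPM, with a median of 521 CPM. No library came near overlap. Aerocytes were lower by a log2 difference of -4.86 (SE 0.23, edgeR adjusted p = 5.03e-14), lower in 10 of 10 libraries. Within larger vessels, arterial cells held 325 to 526 CPM and venous cells 70.3 to 128 CPM over 5 libraries. This difference was 1.92 (SE 0.17, edgeR adjusted p = 1.32e-08).

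Among blood cells, Vegfa averaged 68.0 CPM in basophils or mast cells, with 13.1 to 161 CPM over 4 libraries. It averaged 61.5 CPM in NK cells (11.5 to 106 CPM) and 58.2 CPM in neutrophils. T cells averaged 2.94 CPM, B cells 3.66 CPM and alveolar macrophages 1.91 CPM. In the last 3, expression and free RNA cannot be told apart. Other monocytes and macrophages lay at 12.8 to 43.1 CPM.

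Vegfc, the ligand of Flt4, was highest in venous cells. The 11 venous values ran from 138 to 422 CPM, with a median of 295 CPM. Arterial cells held 45.9 to 157 CPM and general capillary cells 36.7 to 95.1 CPM. Venous cells were higher than arterial cells in all 5 libraries with both (arterial minus venous -1.86, SE 0.19, edgeR adjusted p = 1.28e-07). Aerocytes averaged 2.42 CPM, with 3 of 10 libraries at 0, so both Vegfa and Vegfc were low in this cell type beside general capillary cells. The log2 difference from general capillary cells was -4.55 (SE 0.23, edgeR adjusted p = 2.29e-13). Lymphatic cells held 2 Vegfc UMIs in 269 cells, or 0.972 CPM with an exact Poisson interval of 0.118 to 3.51 CPM that covers counting error only. The cells that hold the receptor Flt4 at a high level therefore showed next to none of its ligand.

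Vegfb, which binds Flt1, was low and broad. Class means ran from 0.691 CPM in erythroid cells to 44.8 CPM in fibroblasts among classes with at least 3 libraries. AT2 cells averaged 38.6 CPM, lymphatic cells 37.8 CPM, ciliated cells 35.6 CPM and alveolar macrophages 31.1 CPM, with overlapping ranges. AT1 cells were below AT2 cells in 6 of 6 libraries (-1.09, SE 0.21, edgeR adjusted p = 0.000201). Aerocytes were below general capillary cells in 8 of 10 libraries (-0.74, edgeR adjusted p = 0.0248). That call was lost without p21Het_2, p21mTert_3 or p21mTert_4 (edgeR adjusted p = 0.0542, 0.0808 and 0.0553). Lymphatic cells were above general capillary cells in 7 of 7 libraries (1.10, edgeR adjusted p = 0.00208), and with a gate that asks for a wider marker lead this was no longer called (edgeR adjusted p = 0.241). In alveolar macrophages the libraries spread from 14.3 to 51.2 CPM.

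Pgf, placental growth factor and a ligand of Flt1, was concentrated in mural and lymphatic cells. In 122 mural cells over all libraries 113 Pgf UMIs gave 119 CPM (exact Poisson 95% interval 97.8 to 143). Just p21Het_2 had 20 or more mural cells, and there the level was 243 CPM. Lymphatic cells held 66.3 to 224 CPM over 7 libraries (2 p21Het, 4 p21mTert and 1 p21mTertCD), with a median of 149.9 CPM. General capillary cells held 11 Pgf UMIs in 4336 cells, and arterial and venous cells none in libraries with at least 20 cells. Lymphatic cells were higher in 7 of 7 libraries (edgeR adjusted p = 2.45e-15). Fibroblasts averaged 12.3 CPM.

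Vegfd, a further Flt4 ligand that is not a member, was at 333 CPM in fibroblasts (4500 UMIs, exact Poisson 95% interval 323 to 343) and at 2.92 CPM in lymphatic cells. No other class had a higher Vegfd level.

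**Figure D2:**
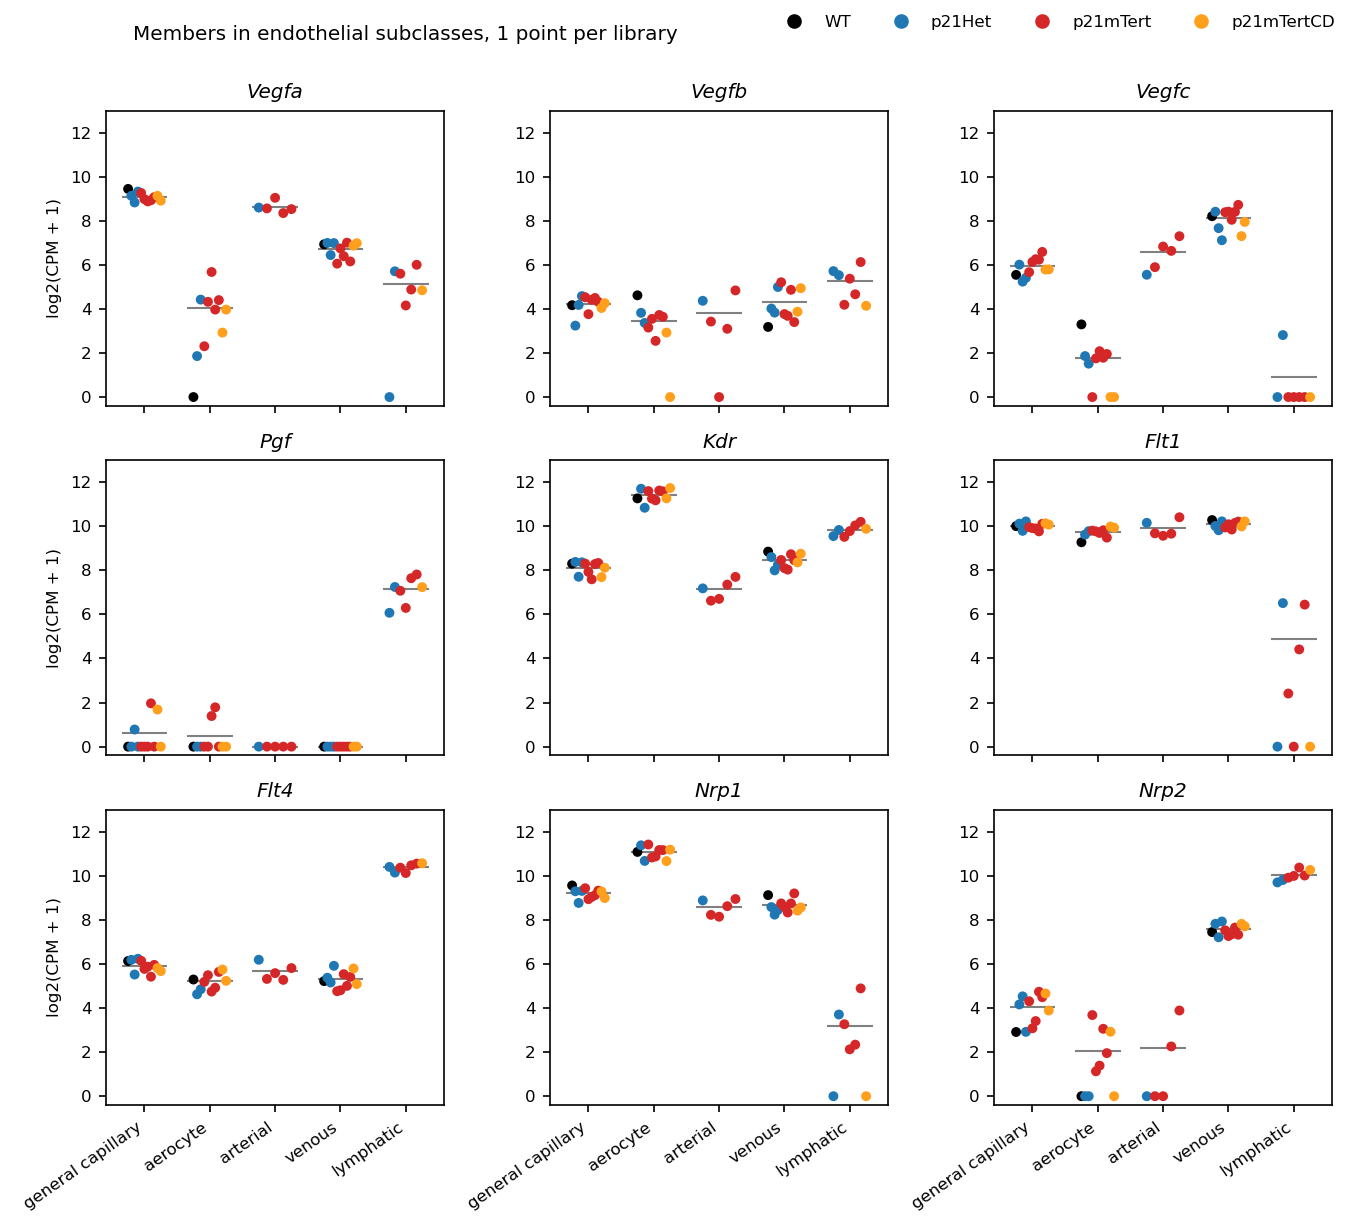
Log2(CPM + 1) of each member (panels) in 5 endothelial subclasses, 1 point per library with at least 20 cells, coloured by genotype, with a grey bar at the mean CPM. Kdr and Nrp1 stand highest in aerocytes, Flt4, Nrp2 and Pgf in lymphatic cells, and Flt1 ranges overlap across the 4 blood vessel types, with the lowest mean in aerocytes.

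Kdr, the main signalling receptor, was highest in aerocytes. Over 10 libraries the lowest value was 1832 CPM, the median 2768 CPM and the highest 3407 CPM. General capillary cells of the same libraries ran from 192 to 332 CPM, with a median of 294 CPM. Every aerocyte value lay above every other class, lymphatic cells included. Kdr was higher in aerocytes by 3.35 on the log2 scale (SE 0.07, edgeR adjusted p = 9.32e-20). The capillary type with the most Kdr was therefore the one with the least Vegfa.

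Lymphatic cells came next for Kdr, at 733 to 1177 CPM, and mesothelial cells after them, at 434 to 611 CPM in 4 libraries. These ranges did not overlap. Mesothelium lines the lung surface, and its Emcn, an endothelial marker, was at 0 in all 4 libraries, while its Kdr stood far above the mean of 1.29 CPM in T cells and 0.90 CPM in AT2 cells. Venous cells held 255 to 461 CPM and general capillary cells 192 to 332 CPM, with venous cells higher in 10 of 11 libraries. Arterial cells were lowest of the vessels, at 97.5 to 207 CPM, and were below venous cells in 5 of 5 libraries (-1.28, SE 0.15, edgeR adjusted p = 8.32e-07).

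Flt1, the decoy-like receptor, was present in all 4 blood vessel types. Means were 1082 CPM in venous, 1027 CPM in general capillary, 977 CPM in arterial and 848 CPM in aerocyte cells, and all ranges overlapped. Aerocytes were below general capillary cells in 9 of 10 libraries, by -0.25 (SE 0.07, edgeR adjusted p = 0.00758). Without the library as a block edgeR did not call it (adjusted p = 0.0537). Lymphatic cells lacked most of it, with values of 0 to 90.4 CPM and a median of 4.31 CPM, against 872 to 1124 CPM in general capillary cells of the same libraries. The difference was -5.05 (SE 0.33, edgeR adjusted p = 3.00e-12), and p21Het_2 at 90.4 CPM and p21mTert_5 at 86.1 CPM stood above the others.

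Outside endothelium Flt1 was high in alveolar macrophages, which patrol the airspace. The 11 libraries ran from 61.4 to 368 CPM, with a median of 280.3 CPM, and all lay above the 18.3 to 53.2 CPM of other monocytes and macrophages. T and B cells averaged 2.49 and 2.65 CPM. The summed CPM of the 8 endothelial markers in alveolar macrophages was 3.91 to 53.3 over all libraries, so Flt1 alone stood above the sum of that list in every library.

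Flt4, the lymphatic receptor, was at 1118 to 1522 CPM in lymphatic cells of 7 libraries, with a median of 1356 CPM. General capillary cells of the same libraries held 41.9 to 71.9 CPM. The gap was wide in 7 of 7 libraries (4.59, SE 0.12, edgeR adjusted p = 6.51e-20). The blood vessel types held 36.3 to 59.1 CPM on average, above the 0.329 CPM of B cells and 0.902 CPM of T cells. Aerocytes were below general capillary cells in 10 of 10 libraries (-0.67, SE 0.13, edgeR adjusted p = 0.00015).

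Nrp1, co-receptor of Vegfa and Kdr, followed Kdr into aerocytes. Values there ran from 1629 to 2742 CPM, with a median of 2237 CPM. General capillary cells of the same libraries ran from 436 to 755 CPM. The log2 difference was 1.88 (SE 0.07, edgeR adjusted p = 2.77e-15), higher in 10 of 10 libraries. Unlike Kdr, Nrp1 was also present at 331 CPM ± 41.7 (SD, n = 11) in fibroblasts and at 206 CPM ± 34.1 (SD, n = 11) in AT2 cells. AT1 cells held 47.3 to 123 CPM, below AT2 cells in 6 of 6 libraries (-1.70, SE 0.15, edgeR adjusted p = 4.32e-09). Lymphatic cells averaged 8.11 CPM.

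Nrp2, the co-receptor tied to Vegfc and Flt4, was at 832 to 1327 CPM in lymphatic cells and 7.46 to 25.7 CPM in general capillary cells of the same 7 libraries. The difference was 5.87 (SE 0.17, edgeR adjusted p = 3.61e-19). Venous cells held 147 to 242 CPM, whereas 240 arterial cells held 6 UMIs in all (3.26 CPM, exact Poisson 95% interval 1.20 to 7.10). Venous cells were higher in 5 of 5 libraries (edgeR adjusted p = 3.80e-10). Alveolar macrophages and fibroblasts each averaged 159 CPM, and AT1 cells held 22.6 to 99.9 CPM against 1.96 to 5.00 CPM in AT2 cells (3.76, SE 0.31, edgeR adjusted p = 1.80e-09).

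Counted over the fits, 7 of 7 members tested between aerocytes and general capillary cells passed an adjusted p of 0.05, 2 higher and 5 lower in aerocytes, where 46.8% of 7986 genes passed. Between lymphatic and general capillary cells 9 of 9 passed, 5 higher and 4 lower, where 44.2% of 7220 genes passed. For AT1 against AT2 it was 4 of 4, 2 in each direction, beside 50.4% of 9446 genes. For arterial against venous cells it was 4 of 7, 1 higher and 3 lower, beside 20.8% of 4756 genes. Flt1, Nrp1 and Flt4 were not called in the last fit (adjusted p from 0.339 to 0.51). A large share of all genes separates these classes, so the counts say little about the members as a set, and the sizes above carry the description. Members below the filter in a fit were left out of its count, among them Pgf in 3 of the 4 fits.

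Likeness between patterns was described by Pearson's r of log2(mean CPM + 1) over 22 classes, which share libraries and free RNA. Among members, Kdr and Flt4 (0.87) and Flt1 and Nrp1 (0.73) were most alike. Of 13274 other genes, the 3 most like Flt4 were Bcl6b (0.94), Robo4 (0.92) and Sox18 (0.92), and those most like Kdr were Unc45b (0.94), Sema6a (0.91) and Sh3tc2 (0.91). Flt1 was most like Batf2 (0.91), Nostrin (0.88) and Calcrl (0.88), and Nrp1 was most like Nostrin (0.80), Cyth3 (0.80) and Xylt2 (0.79). Vegfc lay nearest to Tcf23 (0.90), Myrip (0.90) and Ptprr (0.88). Vegfa had looser neighbours in Gm15222 (0.78), Agrn (0.75) and Epha4 (0.74). Pgf was nearest to Cd109, Osr1 and Postn (0.91 to 0.92), Vegfb to Gm26782, Atp2a2 and Gid4 (0.88 to 0.91), and Nrp2 to Gm10605, Rab11fip5 and Zfp423 (0.77 to 0.87).

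The wider pathway was followed in a list of 77 other genes. In its counts, higher and lower mean an adjusted p under 0.05 in edgeR's test. Between aerocytes and general capillary cells 58 were tested, 19 were higher and 15 lower in aerocytes, where 46.8% of 7986 genes passed. The median log2 difference of the 58 was -0.05, beside -0.01 over all genes. Lower in aerocytes were Sema3g, a semaphorin (-5.07), Ptprb, the phosphatase that restrains endothelial receptor kinases (-4.96), Nos3, which makes nitric oxide (-4.14), the calcium-regulated factor Nfatc1 (-2.54) and the kinase Yes1 (-2.04). Higher were the kinase gene Prkca (3.17), Hspb1, a small heat shock protein phosphorylated downstream of Kdr (3.16), Plaur, the urokinase receptor (1.79), Sema3f (1.52) and Plxna2, a semaphorin receptor (0.96). Ptprb fell from 2919 CPM ± 263 (SD, n = 11) in general capillary cells to 90.6 CPM ± 66.1 (SD, n = 10) in aerocytes. Genes that act after the receptor were thus found in both directions.

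Of 57 pathway genes tested against AT2 cells, 19 were higher and 15 lower in AT1 cells, where 50.4% of 9446 genes passed (median 0.01, all genes -0.08). Sema3e, a plexin ligand, was at 761 CPM ± 82.2 (SD, n = 6) in AT1 and 0.784 CPM in AT2 cells. Sema3a, which binds Nrp1, was at 320.4 CPM ± 62.8 (SD, n = 6) in AT1 and 0.169 CPM in AT2 cells. Sema3f, a neuropilin ligand, was higher in AT1 than in AT2 cells (4.57), but its mean of 60.1 CPM in AT1 cells was below the 776 CPM of aerocytes and the 287 CPM of general capillary cells. Pdgfb (4.77) and Hspg2, the matrix proteoglycan perlecan (4.23), were also higher. Epas1 and Hif1a, the oxygen-sensing factors known to induce Vegfa, were lower in AT1 cells (-4.29 and -1.42), as were Egr1 (-3.96), Plcg1 (-3.23) and Pik3ca (-1.41).

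In lymphatic against general capillary cells 22 of 60 tested pathway genes were higher and 16 lower, where 44.2% of 7220 genes passed (median 0.17, all genes -0.01). Sema3a reached 210.5 CPM ± 81.7 (SD, n = 7) in lymphatic cells, and Angpt2, a ligand of the Tie2 receptor, 191 CPM ± 46.0 (SD, n = 7). Unc5b (3.77), Angpt2 (3.64), the adaptor Shc1 (2.13) and Pxn (1.43) were higher, and Sema3g (-6.46), Epas1 (-4.25), Plxna1 (-3.62), Pdgfb (-3.36) and Ptprb (-3.22) were lower. Arterial cells were above venous cells in 10 of 48 pathway genes and below in 5, where 20.8% of 4756 genes passed (median 0.02, all genes -0.0019). The Notch ligand Dll4 (5.22), Sema3g (5.04), Egr3 (1.79), the plexin Plxnd1 (1.53) and Pdgfb (0.96) were higher. Rcan1 (-1.36), Sema3f (-1.15), Nck1 (-0.60), Pxn (-0.60) and Ets1 (-0.45) were lower.

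Genotypes were compared within each class across the 10 replicated libraries. None of the 9 members passed an adjusted p of 0.05 in edgeR's test in any class. This held for 90 member tests in 16 classes for p21mTert minus p21Het, 81 in 14 classes for p21mTert minus p21mTertCD and 81 in 14 classes for p21mTertCD minus p21Het. Over all genes 0.0268%, 0.0311% and 0.0325% of tests passed. An unadjusted p under 0.05 was reached by 10, 17 and 7 member tests (11.1%, 21% and 8.64%), where 5.5%, 8.03% and 5.18% of all gene tests reached it. DESeq2 called 1, 3 and 1 of the same member tests, where it called 0.104%, 0.742% and 0.507% of all gene tests. Its calls were Flt1 in monocytes and macrophages against p21Het, for both alleles, and Nrp2 in whole libraries, endothelial cells and T cells for p21mTert minus p21mTertCD. edgeR without the filter on low counts called 2, 3 and 1 member tests, beside 0.355%, 0.432% and 0.282% of all. These were Flt1 in monocytes and macrophages for both alleles, Flt1 in neutrophils for p21mTert minus p21Het, and Nrp2 in endothelial and T cells and Pgf in fibroblasts for p21mTert minus p21mTertCD. The earlier deposit holds 1 library of each of its 3 genotypes, so a test within it was not run, and values within the later deposit are given below for the results described in general capillary and venous cells, monocytes and macrophages, neutrophils, fibroblasts, endothelium, T cells and whole libraries. The comparisons share groups and the classes share libraries, so these counts are not independent.

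**Figure D3:**
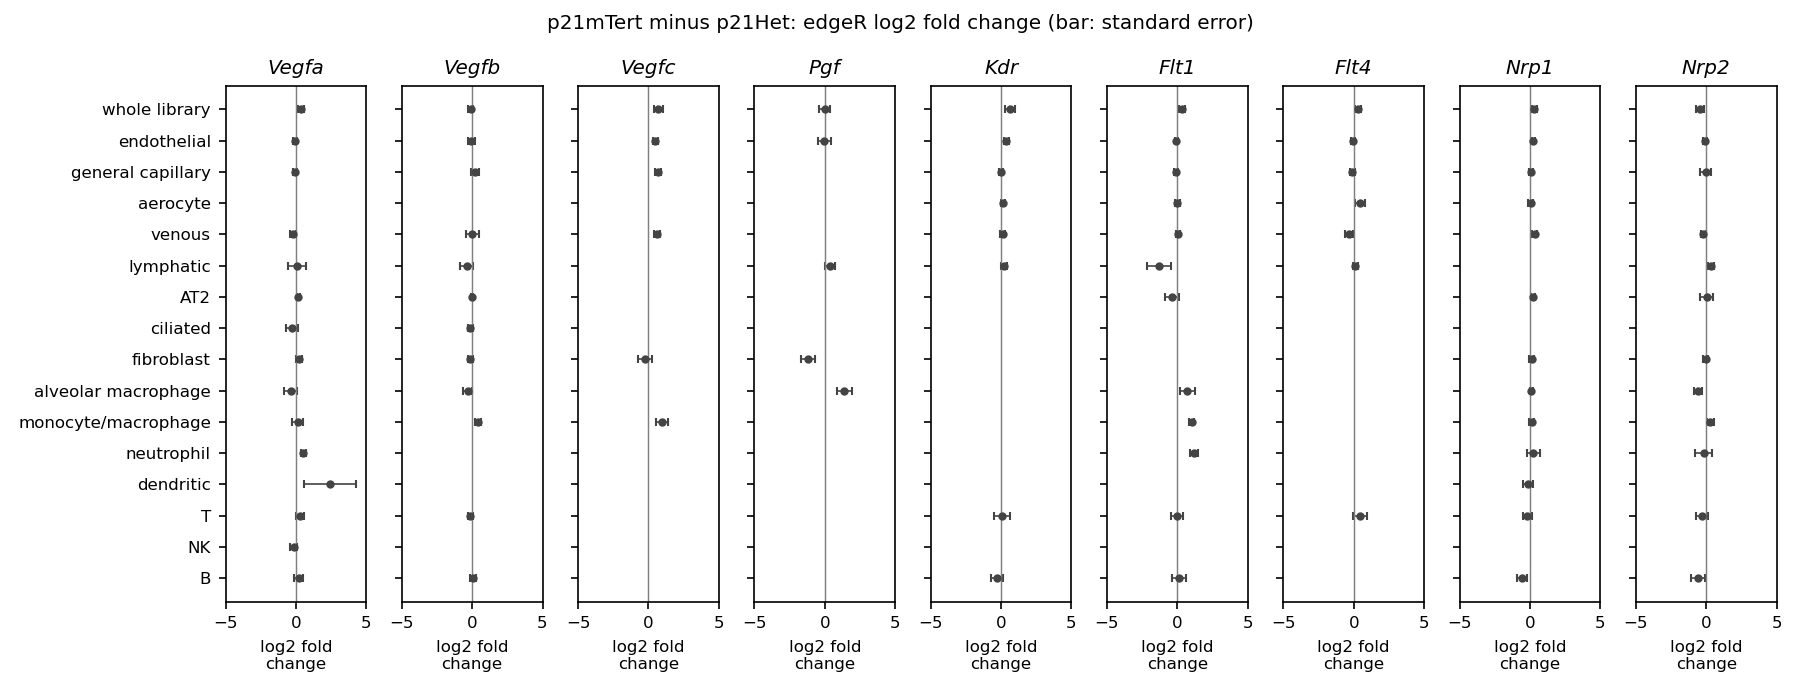
Log2 fold change of each member (panels) between p21mTert and p21Het in each class in which it was tested (rows), with bars of 1 standard error derived from edgeR's F statistic. Points for Kdr, Flt1 and Nrp1 in the capillary classes lie near 0, and Flt1 lies to the right in neutrophils and in monocytes and macrophages.

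In the capillaries themselves the groups overlapped. Aerocyte Kdr was 3334 and 1832 CPM in the 2 p21Het libraries with at least 20 aerocytes. It was 3097, 2447, 2316, 3152 and 3069 CPM in p21mTert, 2466 and 3407 CPM in p21mTertCD, and 2461 CPM in WT. The p21Het pair spans nearly the whole range. The p21mTert minus p21Het difference was 0.14 (SE 0.17, edgeR adjusted p = 1.00), and for aerocyte Nrp1 it was 0.04 (SE 0.17). With a term for the deposit they were 0.24 and 0.16.

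General capillary Vegfa was 560.0, 454 and 641 CPM in p21Het. In p21mTert it was 613, 504, 470.1, 487 and 537 CPM, in p21mTertCD 560.2 and 481 CPM, and in WT 696 CPM. The groups overlap, with WT highest. The p21mTert minus p21Het differences in this class were -0.05 for Vegfa (SE 0.12), -0.03 for Kdr (SE 0.15), -0.09 for Flt1 (SE 0.12) and 0.07 for Nrp1 (SE 0.13). None of these 4 was called by edgeR, with adjusted p = 1.00 for each. In the later libraries they were -0.12, 0.000454, -0.09 and 0.05.

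Vegfc was the member with the smallest unadjusted p in general capillary cells. Its p21Het values were 63.4, 36.7 and 41.6 CPM, and its p21mTert values 49.8, 69.1, 75.4, 74.3 and 95.1 CPM. p21mTertCD stood at 54.1 and 54.5 CPM and WT at 45.7 CPM. Of the p21mTert libraries 4 lay above all p21Het libraries, while p21mTert_1 lay below p21Het_1. The difference was 0.69 (SE 0.20, edgeR adjusted p = 1.00). Restricted to the 8 later libraries the difference was 0.97 (edgeR adjusted p = 0.0413), a call that rests on 2 p21Het and 4 p21mTert libraries, in a setting that called 0.02% of all gene tests and 1 member test. With all libraries and a term for the deposit it was 0.65 and not called (edgeR adjusted p = 1.00). Summed arterial markers in these cells were 545 to 726 CPM in p21Het and 555 to 899 CPM in p21mTert, and summed venous markers 973 to 1243 and 611 to 1096 CPM, and their part in the result was not tested. Venous Vegfc ran from 138 to 339 CPM in p21Het and from 263 to 422 CPM in p21mTert (0.62, SE 0.22, edgeR adjusted p = 0.931), with 0.95 in the later libraries.

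**Figure D4:**
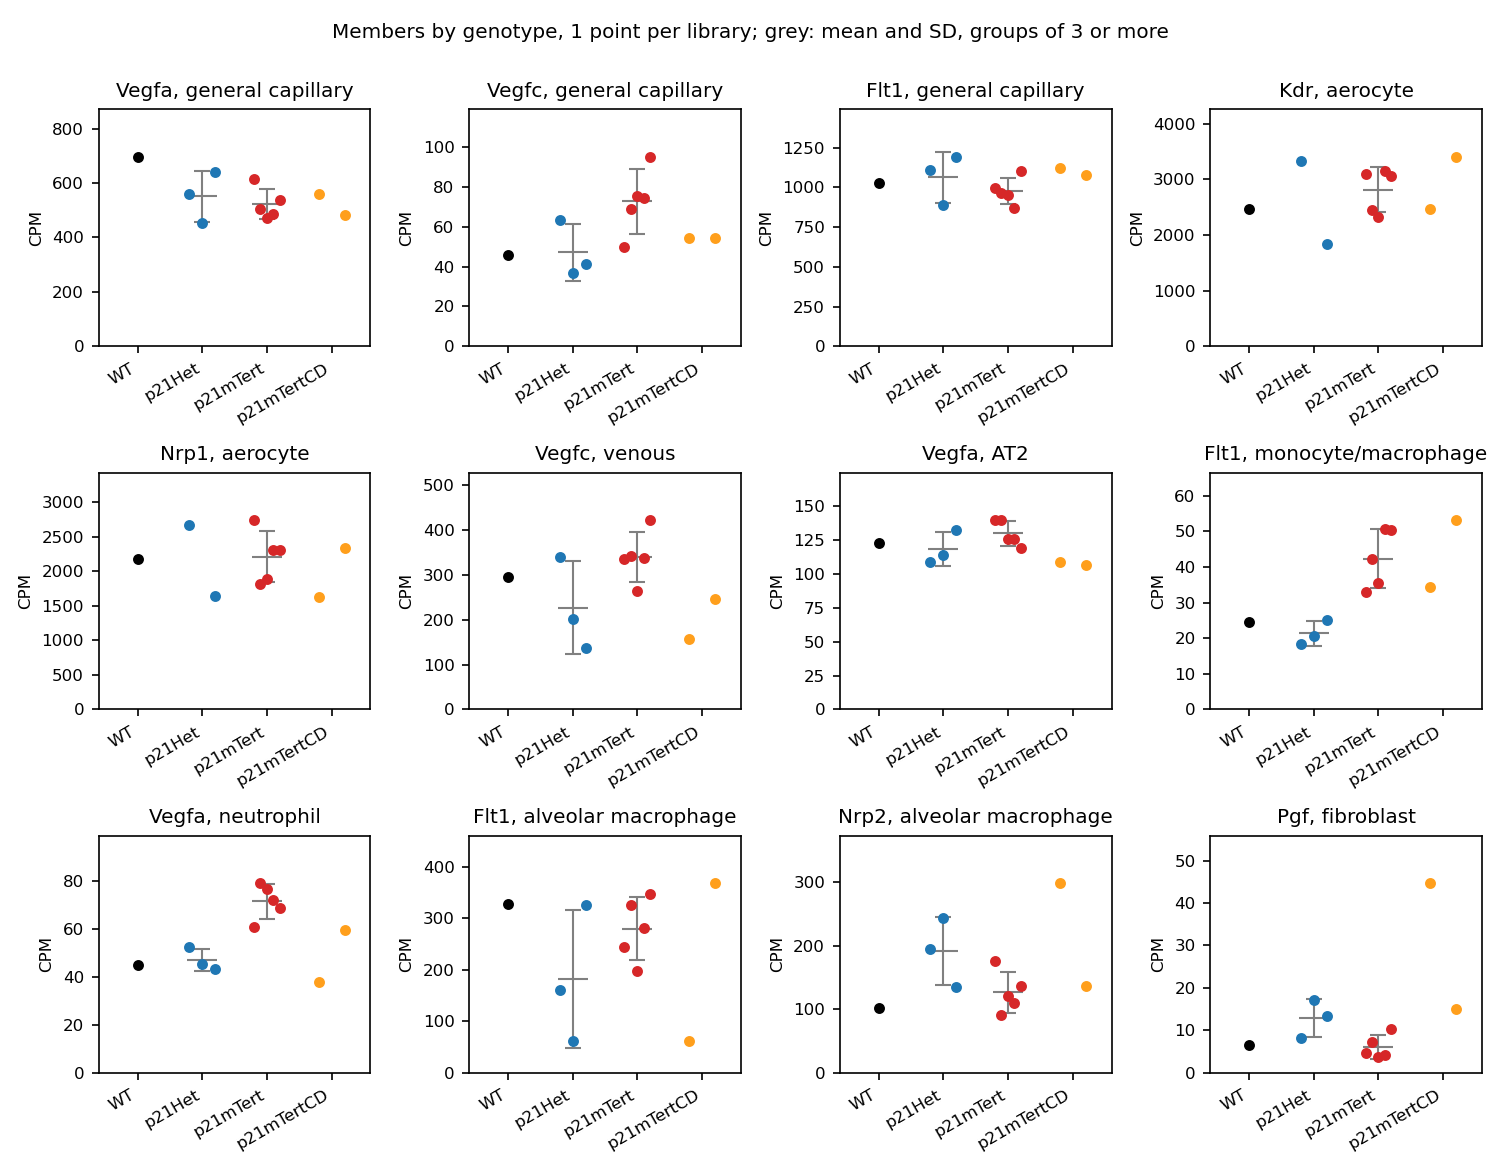
CPM of selected members by genotype in 12 panels, 1 point per library with at least 20 cells, with a grey mean and SD for groups of 3 or more. Flt1 in monocytes and macrophages and Vegfa in neutrophils show p21mTert points above all p21Het points, while capillary Kdr, Nrp1 and Vegfa overlap.

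The lowest p of any member came from Flt1 in monocytes and macrophages other than alveolar. The p21Het libraries stood at 18.3, 20.6 and 25.1 CPM. The p21mTert libraries stood at 32.9, 42.3, 35.4, 50.6 and 50.5 CPM, the p21mTertCD libraries at 34.4 and 53.2 CPM, and WT at 24.6 CPM. All 7 libraries with either Tert allele lay above all p21Het libraries and above WT. p21mTert minus p21Het was 1.01 (SE 0.18, edgeR adjusted p = 0.324), and p21mTertCD minus p21Het, which shares the p21Het libraries, was 1.10 (SE 0.21, adjusted p = 0.116). DESeq2 called both (adjusted p = 0.00267 and 0.00358), as did edgeR without the filter on low counts (adjusted p = 0.0153 and 0.0081). In the later libraries the differences were 1.00 for both (edgeR adjusted p = 0.643 and 0.270).

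This class can hold several cell types. C1qa, which marks interstitial macrophages, was at 689 CPM in WT, at 851, 2009 and 886 CPM in p21Het, at 1036 to 2659 CPM in p21mTert and at 2074 and 1199 CPM in p21mTertCD. All 7 libraries with a Tert allele thus lay above WT and above the p21Het libraries other than p21Het_2. Ace, which marks non-classical monocytes, was at 163 to 172 CPM in p21Het and 205 to 308 CPM in p21mTert, but at 126 and 248 CPM in p21mTertCD and 257 CPM in WT. Other genes of non-classical monocytes overlapped between p21Het and p21mTert: Treml4 was at 96.0 to 122 and 114 to 163 CPM, Adgre4 at 135 to 224 and 171 to 252 CPM, and Cx3cr1 at 385 to 431 and 380.1 to 511 CPM. Ccr2, a marker of classical monocytes, was at 246 to 925 CPM in p21Het, 237 to 585 CPM in p21mTert and 692 to 715 CPM in p21mTertCD. Ly6c2 and Ms4a6c, also of classical monocytes, were highest in the p21mTertCD libraries, at 645 and 708 CPM against at most 489 CPM in any other library and at 1045 and 1059 CPM against at most 1024.5 CPM. All 8 endothelial markers were detected in each replicated group, with sums of 25.9 to 122 CPM in p21Het, 35.9 to 72.8 CPM in p21mTert and 33.3 to 35.8 CPM in p21mTertCD. Alveolar macrophages are rich in Flt1. Their summed markers in this class were 873 to 1748 CPM in p21Het and 729 to 1443 CPM in p21mTert. In p21mTertCD the sums were 748 to 2011 CPM. The part of these cells and markers in the Flt1 values was not tested.

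Neutrophils showed 2 members with a like order. For p21mTert minus p21Het in these cells, 5.62% of 7906 genes had an unadjusted p under 0.05 in edgeR's test. How many other genes show the same order was not counted. Vegfa was at 52.3, 45.3 and 43.4 CPM in p21Het and at 60.7, 79.0, 76.6, 72.1 and 68.5 CPM in p21mTert. p21mTertCD stood at 37.7 and 59.6 CPM and WT at 44.8 CPM. All p21mTert libraries lay above every other library, by 0.52 against p21Het (SE 0.19, edgeR adjusted p = 0.70). Flt1 in the same cells was at 12.3, 5.44 and 7.03 CPM in p21Het and 25.2, 17.0, 24.1, 17.3 and 13.7 CPM in p21mTert, resting on 6 to 52 UMIs per library. p21mTertCD was at 12.5 and 19.5 CPM and WT at 12.2 CPM, and p21mTert lay above all p21Het libraries. The Flt1 difference was 1.16 (SE 0.29, edgeR adjusted p = 0.531). Within the later libraries the differences were 0.57 for Vegfa and 1.26 for Flt1. Summed endothelial markers in neutrophils were 24.6 to 84.0 CPM in p21Het and 41.5 to 110.0 CPM in p21mTert, and their part was not tested.

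Alveolar macrophages varied widely between libraries of the same genotype. Flt1 was 160, 61.6 and 326 CPM in p21Het, 245, 326, 196, 280.3 and 348 CPM in p21mTert, 61.4 and 368 CPM in p21mTertCD, and 327 CPM in WT. The lows were p21Het_2 and p21mTertCD_1, in different genotypes. The same 2 libraries had the highest Nrp2 of this class, at 244 and 299 CPM, against 90.3 to 196 CPM in the other 9. They also had the most cells of the class (548 and 500) and the highest Gpnmb, a gene of lipid-laden macrophages, at 660.0 and 689.9 CPM against 94.4 to 453 CPM. Siglecf, which marks resident alveolar macrophages, was lowest there, at 46.4 and 32.4 CPM against 83.2 to 149 CPM. Ear2, a further gene of resident alveolar macrophages, was lowest there too, at 695 and 480.1 CPM against 977 to 1915 CPM. Spp1 (1526 and 1766 CPM, others at most 1205), Ctsk (1789.6 and 1999 CPM, others at most 1320.3) and Chil3 (46992 and 41076 CPM, others at most 29441) were highest there. Of the 7 genes examined only Marco was within the range of the others, at 248 and 219 CPM against 113 to 522 CPM. Their part in the Flt1 and Nrp2 values was not tested. These 7 genes were picked after the Flt1 values were seen. The p21mTert minus p21Het difference was 0.70 for Flt1 (SE 0.54, edgeR adjusted p = 0.777) and -0.59 for Nrp2 (SE 0.28, edgeR adjusted p = 0.737).

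Against p21mTertCD the smallest unadjusted p belonged to Pgf in fibroblasts, while Nrp2 in T cells had the smallest adjusted p. Fibroblast Pgf was at 44.7 and 15.1 CPM in p21mTertCD and at 4.59, 7.32, 3.69, 4.17 and 10.3 CPM in p21mTert. It was at 8.13, 17.1 and 13.4 CPM in p21Het and at 6.46 CPM in WT. Both p21mTertCD libraries lay above all p21mTert libraries, and p21mTertCD_1 alone lay far above the rest. p21mTert minus p21mTertCD was -2.28 (SE 0.47, edgeR adjusted p = 0.498). Without p21mTertCD_2 it was -3.00, and without p21mTertCD_1, the library with the high value, it was -1.33. In either fit 1 library stands for that genotype and is assumed to vary like the others. Within the later libraries, which hold both of that genotype, it was -2.23. The values rest on 2 to 44 UMIs per library. Of 8 mural markers, whose cells also hold Pgf, 6 were detected in p21mTertCD fibroblasts, with sums of 162 to 303 CPM, and 8 in p21mTert fibroblasts, with sums of 158 to 495 CPM. Their part in the Pgf values was not tested.

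Nrp2 over all endothelial cells was at 179 and 149 CPM in p21mTertCD and at 87.5, 70.7, 103, 115 and 111 CPM in p21mTert. p21Het stood at 97.4, 98.2 and 117 CPM and WT at 79.8 CPM. The p21mTertCD libraries lay above all others. p21mTert minus p21mTertCD was -0.81 (SE 0.17, edgeR adjusted p = 0.182), and DESeq2 called it (adjusted p = 0.0138), as did edgeR without the filter on low counts (adjusted p = 0.018). The later libraries alone gave -0.74, and for p21mTertCD minus p21Het they gave 0.62 (edgeR adjusted p = 0.837). Lymphatic and venous cells are rich in Nrp2, and their shares of the endothelial cells differed between the 2 p21mTertCD libraries. In p21mTertCD_1 lymphatic cells were 6.50%, the highest of the 11 libraries, and venous cells 5.65%, the lowest. In p21mTertCD_2 venous cells were 16.6%, the highest, and lymphatic cells 3.59%. p21Het_3 had 14.9% venous and 4.73% lymphatic cells, with endothelial Nrp2 at 117 CPM. Within venous cells Nrp2 was 225 and 208 CPM in p21mTertCD, 153 to 200.2 CPM in p21mTert and 147 to 242 CPM in p21Het. Both p21mTertCD libraries lay above all p21mTert libraries there and within the p21Het range. Within lymphatic cells, p21mTertCD_1 was the only library of its genotype with at least 20 cells. Its lymphatic Nrp2 was 1233 CPM, against 966 to 1327 CPM in p21mTert and 832 and 898 CPM in p21Het. Flt4 over all endothelial cells was at 219 and 143 CPM in p21mTertCD, 110 to 159 CPM in p21mTert and 118 to 141 CPM in p21Het. In the later libraries p21mTert minus p21mTertCD was -0.55 for Flt4 (edgeR adjusted p = 0.492). The part of the makeup in these endothelial values was not tested.

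Nrp2 in T cells differed by -1.84 for p21mTert minus p21mTertCD (SE 0.43, edgeR adjusted p = 0.177). It was at 6.55 CPM in p21mTertCD_1 and 16.4 CPM in p21mTertCD_2, above every other library. p21mTert held 1.42 to 4.62 CPM, p21Het 2.53 to 5.76 CPM and WT 3.62 CPM. In the later libraries the difference was -1.84 (edgeR adjusted p = 0.333), and for p21mTertCD minus p21Het 1.49 (edgeR adjusted p = 0.41). Summed alveolar macrophage markers in T cells were 52.8 to 955 CPM in p21mTertCD and 31.6 to 209 CPM in p21mTert. In p21Het they were 64.6 to 830 CPM, and their part in the Nrp2 values was not tested. Summed over whole libraries, Nrp2 was 80.3 and 40.9 CPM in p21mTertCD, 24.0 to 35.3 CPM in p21mTert and 34.5, 60.6 and 28.7 CPM in p21Het. p21mTert minus p21mTertCD was -1.06 (SE 0.32, edgeR adjusted p = 0.223), and the later libraries gave -1.11 (edgeR adjusted p = 0.152). Alveolar macrophages held 2980 of the 4588 Nrp2 UMIs of p21mTertCD_1 and 2141 of the 4106 of p21Het_2, the libraries with the most cells of that class. In whole libraries fewer cells of a type and less RNA per cell cannot be told apart.

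The 77 other pathway genes gave 1 call among 2577 tests over the genotype comparisons. Sh2d2a, an adaptor that binds Kdr, was higher in whole p21mTertCD libraries than in p21Het (1.21, SE 0.17, edgeR adjusted p = 0.0447), in a fit where 0.12% of genes passed. Its mean was 36.9 CPM in whole libraries but 0.481 to 3.37 CPM in the 5 endothelial subclasses. T cells were 35.1% and 25.8% of kept cells in p21mTertCD and 12.8% to 15.6% in p21Het, and their part in the Sh2d2a value was not tested. In general capillary cells the genes known to rise with VEGF in endothelium had a median of 0.25 in p21mTert minus p21Het over 14 genes tested, none called. Over the 65 pathway genes tested in that class the median was -0.00097, and over all 9955 genes -0.0047.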

How the data were processed

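Whole lung from 11 libraries was measured by 10x 3′ single-cell RNA sequencing. The authors deposited raw UMI counts per gene and barcode, mapped to mm10 with Cell Ranger per the series' design text, which names version v2.3, while the matrix file headers name 3.1.0. The authors' limits on barcodes (1000 to 30000 UMIs, at most 14% mitochondrial UMIs) were applied here to the deposited counts.

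Cells were assigned to a class with at least 3 of its markers detected and a lead of 2 markers over the next class (2 and 1 for the endothelial subclasses). These thresholds were set after the files had been read. Under the minimum fell 1828 cells and without the lead 6401, and 7509 assigned cells had the smallest lead. No doublet caller was run, so doublets were left out only where the lead rule did so. Kept cells of different libraries shared 617 barcode sequences. Raw counts were summed per library and class with at least 20 cells. edgeR 4.0.16 (R 4.3.3) was run on these sums with filterByExpr, TMM, quasi-likelihood tests and Benjamini-Hochberg adjustment over all genes of each class and comparison. CPM values are shares of all UMIs of a class without TMM. The log2 differences can therefore depart from ratios of the CPM given, as for AT1 against AT2 cells. Genotypes were fitted together without WT, which has 1 library, and classes were compared with the library as a block. Each SE is the absolute log2 difference divided by the square root of the F statistic of its quasi-likelihood test. The scripts were tested on simulated data with 200 changed genes. Python 3.11.15 with numpy 2.4.6, pandas 2.3.3 and scipy 1.17.1 did the rest. Depth limits low members: intervals are exact Poisson intervals at 95% and cover counting error only.

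Members and gene lists were chosen with earlier results of these data known, and no p-value is adjusted over a list alone. The named genes are the members, up to 5 pathway genes per direction with the smallest adjusted p in a comparison, and the 3 genes most like each member among those at 10 CPM or more in at least 1 class. Genotype results are described where they concern Vegfa or its receptors in capillaries or where a member's unadjusted p was under 0.01, with a few neighbouring values. Alternatives were DESeq2 1.42.0, no filter on low counts, all barcodes, a stricter gate, per-cell means, the later deposit alone, a term for the deposit, the compared pair alone, a replicate block, no library block and each library left out. A gate with a lead of 4 markers (2 in subclasses) was added after the data had been seen.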

Additional observations from a re-analysis of the deposited data

Results flagged for a closer look

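Flt1 in arterial cells of p21mTert_5 was 1359 CPM, far above the 758 to 819 CPM of the other p21mTert libraries. Flt4 in the whole library p21mTert_1 was 6.72 CPM, below the 10.5 to 11.2 CPM of the other 4 p21mTert libraries, and p21mTert_1 is the only one of that genotype in the earlier deposit. Its endothelial share was 8.02% of kept cells against 9.85% to 15.1% in the other 4, and its Flt4 within endothelial cells, at 113 CPM, lay within their 109.8 to 159 CPM. Of 76 groups of 4 to 10 libraries examined for a library far from the others, 2 had one, and chance gives about 1 in 20.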

How the results depend on the processing

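Results for single members were checked under the alternatives. Of these checks, 446 between cell classes and 346 between genotypes kept the direction and the side of the threshold. In 5 and 0 the call was lost, and between genotypes 13 gained one and 18 changed sign. For mean levels, 216 checks were kept and 5 moved. Among those moved, venous Vegfa went from 105 to 80.4 CPM with the wider lead. With per-cell means, AT2 Vegfa went from 122 to 97.5 CPM and mesothelial Vegfa from 15.0 to 43.0 CPM. Without the library as a block, Flt1 was no longer called lower in aerocytes (edgeR adjusted p = 0.0537). Members called for p21mTert minus p21Het numbered 1 with DESeq2, 2 with no filter on low counts and 1 in the later deposit, against 0. For p21mTert minus p21mTertCD they numbered 3 with DESeq2 and 3 with no filter. Fits without 1 of the 2 p21mTertCD libraries leave 1 library for that genotype, so their calls are not given. For p21mTertCD minus p21Het they numbered 1 with DESeq2 and 1 with no filter. Small p21mTert minus p21Het differences changed sign: general capillary Vegfa with the replicate number as a block (0.000552), general capillary Kdr in the later deposit (0.000454), and aerocyte Flt1 with a term for the deposit (-0.0461), the stricter gate (-0.0038) and the wider lead (-0.0496). With each library left out, ranges spanned 0 for Vegfa (-0.106 to 0.0545), Kdr (-0.157 to 0.0597) and Nrp1 (-0.0204 to 0.147) in general capillary cells and for Kdr (-0.13 to 0.47), Flt1 (-0.20 to 0.23) and Nrp1 (-0.16 to 0.28) in aerocytes. The cause was not tested. Deviations from the group mean had correlations between same-numbered libraries of -0.33 to 0.22 in whole libraries and -0.21 to 0.37 in general capillary cells. Between other libraries these were -0.25 to 0.49 and -0.28 to 0.21. The deviations of the 2 p21mTertCD libraries are equal and opposite by construction, so the check cannot settle whether the numbers pair libraries. The replicate block called no member. Members with few UMIs, such as Pgf in fibroblasts and Flt1 in neutrophils, are limited by depth.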
